A study of Homo sapiens with 6 samples.

Results

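The 10 genes CCN1, CCN2, F3, AXL, AMOTL2, AJUBA, NT5E, CRIM1, PTPN14 and MYOF are published targets of the transcriptional coactivators YAP and TAZ. They were taken by symbol through the Ensembl identifiers of the deposited tables, and all 10 were found among 19746 genes. The RNA-Seq data are from SW480, an established human colorectal cancer line, with 3 groups of 2 libraries. The shNT cells carried a nontargeting hairpin, and the shPcyt2-1 and shPcyt2-2 cells carried 1 of 2 different hairpins against PCYT2, the enzyme that makes CDP-ethanolamine for phosphatidylethanolamine. According to the methods of the study, colorectal cancer cells received hairpins from a lentiviral pLKO.1 vector and were selected with puromycin. No other procedure is described for shNT. No other agent or genotype was named. Everything below concerns 1 cell line, and nothing in the labels says whether the 2 libraries of a group came from separate cultures.

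YAP and TAZ carry no DNA-binding domain of their own and bind promoters and enhancers through TEAD factors, often beside AP-1. In the Hippo pathway MST kinases activate LATS kinases, and LATS phosphorylates YAP and TAZ, which are then held in the cytoplasm or degraded, so the level of target mRNAs is a common readout of the pathway. In colorectal cancer the pathway is known for its links to cell shape, matrix stiffness and WNT signaling. The question asked of these genes was whether their mRNA levels differed between PCYT2 knockdown and shNT, and whether both hairpins gave the same picture.

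Promoter stretches of 4 targets are printed because they hold the letters that TEAD factors and AP-1 are known to bind. They come from RefSeq (GRCh38.p14), which gave 11 windows of 300 bases (250 before to 50 after a start) for 8 of the 10 genes, all but CCN1 and CRIM1. The motifs were searched on both strands: GGAATG (or CATTCC, its reverse complement) for TEAD and TGANTCA, which reads alike on both strands, for AP-1. The motifs do not overlap each other in any of the stretches shown. Capitals mark the motif, and each line runs 5′ to 3′ on the strand of the gene.
CCN2, chr6:131951447-131951556, minus strand, with GGAATG at -169, -104 and -95 from the start: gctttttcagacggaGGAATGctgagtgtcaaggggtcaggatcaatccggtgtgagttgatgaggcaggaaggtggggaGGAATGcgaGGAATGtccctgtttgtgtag
AXL, chr19:41226528-41226563, plus strand, with CATTCC at -212 from the second start: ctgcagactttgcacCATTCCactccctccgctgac
PTPN14, chr1:214551782-214551817, minus strand, with CATTCC at -200: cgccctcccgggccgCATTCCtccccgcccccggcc
F3, chr1:94541948-94541997, minus strand, with TGANTCA at -223 and -210: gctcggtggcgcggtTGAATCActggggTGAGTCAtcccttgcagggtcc
By GENCODE release 29 the CCN2 stretch lies in an intron of AL133346.1, upstream of CCN2, the AXL and PTPN14 stretches lie in introns of those genes, and the F3 stretch lies between genes.

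GGAATG on either strand was found in 5 of the 11 windows, 1 each of CCN2, AXL, PTPN14, AMOTL2 and AJUBA. Of all 35116 RefSeq windows, 14.0% held it. The CCN2 window held it 3 times, and 0.128% of all windows held it at least 3 times. TGANTCA was found in the F3 window only, 2 times, whereas 7.71% of all windows held it and 0.515% held it at least 2 times. A match describes these letters and is not a shown binding site.

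**Figure D1:**
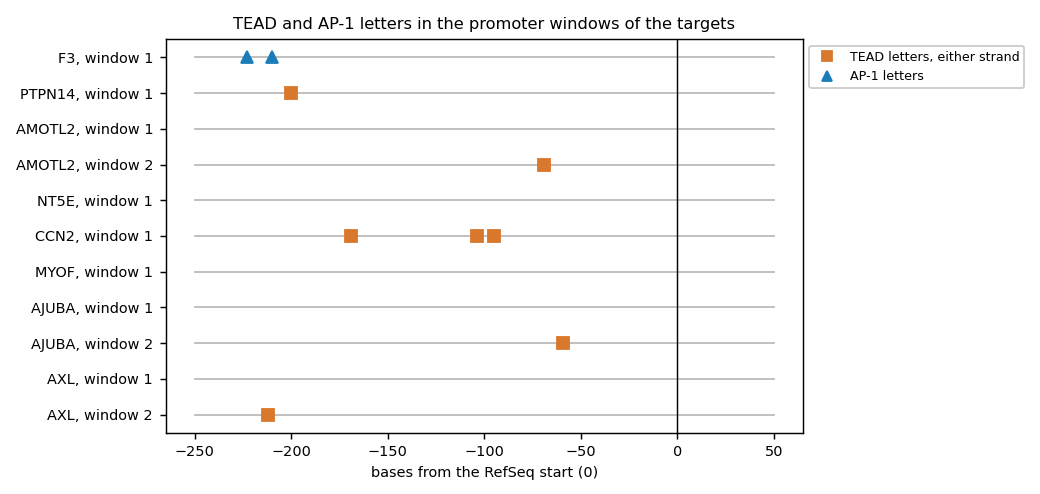
Positions of the TEAD letters (squares, either strand) and the AP-1 letters (triangles) in the 11 RefSeq promoter windows, in bases from the annotated start at 0. The CCN2 window holds 3 squares, the F3 window holds 2 triangles, and 5 of the 11 windows hold neither.

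The deposited values were taken to be FPKM, that is fragments per kilobase of a gene relative to the size of the library. They are not whole numbers, and their sum lay between 396466.6 and 402611.9 in each library. TPM, another unit scaled by length, over some of the genes would look alike and cannot be told apart. Between 17102 and 17481 genes were listed above 0 in a library. The read depth of the libraries is unknown, and each value rests on 2 libraries a group. Replicates agreed across genes with a Pearson r between 0.9934 and 0.995, where genes are not independent replicates. Genes with a mean of at least 0.5 FPKM (12756, including all 10 targets) were tested with limma on log2(FPKM + 1) in 1 fit of all 6 libraries, with Benjamini-Hochberg adjustment over all of them. A gene was called at an adjusted p under 0.05. Log2 differences are on that scale and understate the change of a gene, most at levels near or below 1 FPKM and less, but still, at several FPKM.

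PCYT2 was at 11.6 and 13.8 FPKM with shNT, at 7.11 and 7.36 FPKM with shPcyt2-1 and at 6.71 and 6.18 FPKM with shPcyt2-2. Both shNT libraries thus exceeded every knockdown library. The shPcyt2-1 group differed from shNT by -0.73 on the log2 scale (SE 0.10, limma adjusted p = 0.00205) and the shPcyt2-2 group by -0.88 (SE 0.10, limma adjusted p = 0.00261). The mean levels left were 0.570 and 0.508 times that of shNT. Between the hairpins PCYT2 differed by -0.15 on the log2 scale (95% interval -0.37 to 0.08, limma adjusted p = 0.309), so neither hairpin was shown to deplete it further.

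The libraries carried the markers of colorectal epithelium. KRT8 and KRT18, keratins of simple epithelia, were at 3602 and 3861 FPKM and at 3242 and 3487 FPKM with shNT, and EPCAM was at 280.9 and 257.9 FPKM. Of 6 epithelial markers, 3 fell with shPcyt2-2 against shNT, where 4.74% of all tested genes did. These were KRT8, KRT18 and KRT19, by 0.41, 0.45 and 0.44 on the log2 scale (limma adjusted p = 0.00483, 0.00319 and 0.00546), while CDX2, EPCAM and CDH1 (E-cadherin) stood at -0.06, 0.11 and 0.19 and did not pass. With shPcyt2-1, 1 of the 6 fell, where 10.1% of all tested genes did. It was CDX2, the intestinal homeobox factor, by 0.65 (limma adjusted p = 0.00138). The part of these changes in the results on the targets was not tested. Of 9 markers of blood, endothelial and fibroblast cells, PTPRC and COL3A1 were listed in no library and DCN reached at most 0.0586 FPKM. CD3E, PECAM1 and VWF reached at most 0.173 FPKM. COL1A1 was at 1.08 and 1.03 FPKM with shNT, at 1.16 and 1.50 FPKM with shPcyt2-1 and at 1.53 and 1.68 FPKM with shPcyt2-2. CD14 lay between 0.713 and 1.17 FPKM in all libraries. The summed level of the 9 markers was 2.75 and 3.36 FPKM with shNT, 4.25 and 5.01 FPKM with shPcyt2-1 and 4.27 and 3.81 FPKM with shPcyt2-2. Its most abundant gene with shPcyt2-1 was LUM (lumican, a matrix proteoglycan), at 2.17 and 2.24 FPKM against 0.789 and 0.863 FPKM with shNT. LUM was the 1 marker of the 3 tested that rose with shPcyt2-1 (log2 difference 0.81, limma adjusted p = 0.00192), where 16.5% of all tested genes did.

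In shNT cells the targets covered a range from 1.01 ± 0.388 FPKM (SD, n = 2) for F3 to 18.7 ± 2.08 FPKM (SD, n = 2) for AJUBA. Per length, the order from high to low was AJUBA, MYOF (8.21 FPKM), AMOTL2 (7.43 FPKM), AXL (5.21 FPKM), CCN1 (2.88 FPKM), NT5E (2.74 FPKM), PTPN14 (2.34 FPKM), CRIM1 (1.84 FPKM), CCN2 (1.55 FPKM) and F3. CRIM1 and CCN2 were the only neighbours whose 2 libraries overlapped.

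**Figure D2:**
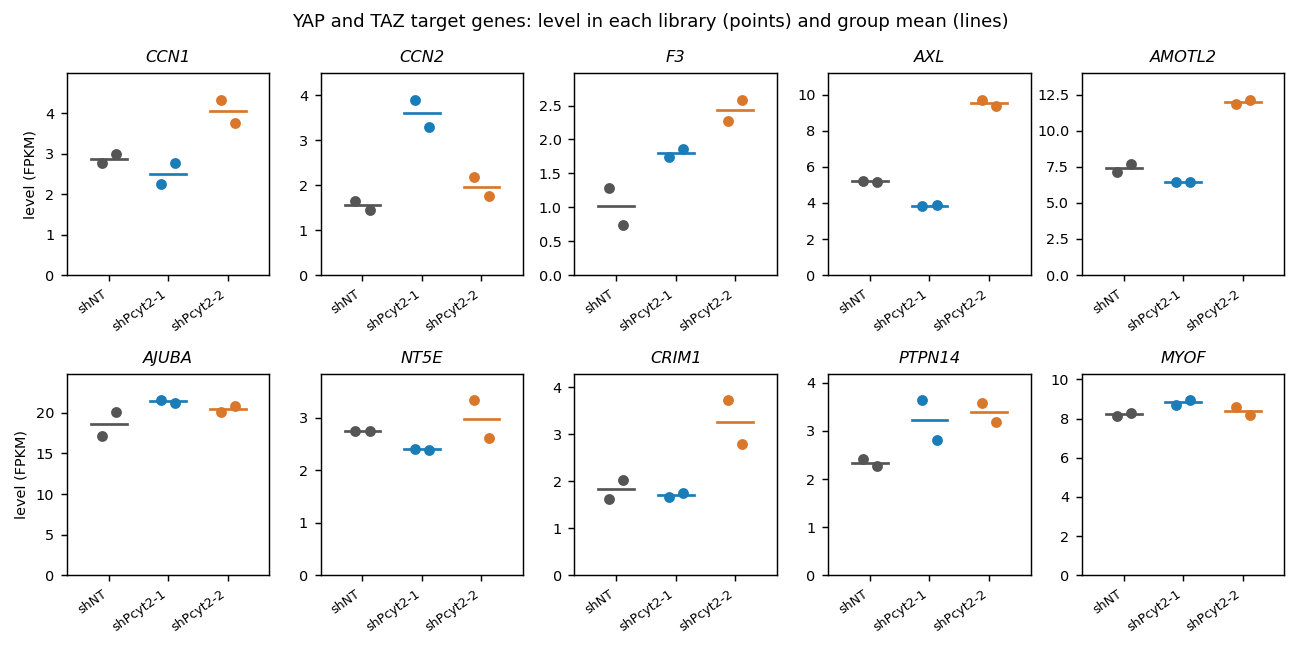
Level of each of the 10 targets in FPKM (vertical axes, each from 0) in the 2 libraries of shNT, shPcyt2-1 and shPcyt2-2, with points for libraries and lines for group means. AXL, AMOTL2 and CRIM1 stand highest with shPcyt2-2 and CCN2 stands highest with shPcyt2-1.

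With shPcyt2-1, CCN2 and F3 rose and AXL fell, which is 3 of 10 targets. Of all tested genes 26.7% were called in that comparison, 16.5% as higher and 10.1% as lower. With shPcyt2-2, F3, AXL, AMOTL2 and CRIM1 rose, which is 4 of 10 targets, and no target fell by limma, also at an unadjusted p under 0.05. Of all tested genes 12.4% were called there, 7.69% as higher and 4.74% as lower. Both comparisons share the shNT libraries.

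The median log2 difference of the 10 targets was 0.02 with shPcyt2-1, where the median of all tested genes was 0.07, and it was -0.04 after median-ratio scaling. With shPcyt2-2 the targets' median was 0.38, where the median of all tested genes was 0.04. All 10 differences were positive with shPcyt2-2, except that MYOF was at -0.02 after median-ratio scaling, and that NT5E was at -0.050 and MYOF at -0.0042 without the first shPcyt2-2 library. Of the 12756 tested genes, 7407 had a positive difference there. The same scaling shifted the balance of calls among all genes with shPcyt2-1 from 2109 higher and 1291 lower to 1476 and 1713, and with shPcyt2-2 from 981 higher and 604 lower to 760 and 845. It left the number of targets called with shPcyt2-2 at 4 and took away the call of F3 with shPcyt2-1.

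Compared directly, 5 of the 10 targets differed between the hairpins. CCN1, AXL, AMOTL2 and CRIM1 were higher with shPcyt2-2 than with shPcyt2-1, and CCN2 was lower. Of all tested genes 27.1% were called in this comparison, 12.9% as higher and 14.2% as lower with shPcyt2-2. The targets' median was 0.26, and that of all tested genes was -0.02. The summed level of the 10 targets was 50.2 and 53.5 FPKM with shNT, 56.2 and 55.4 FPKM with shPcyt2-1 and 69.7 and 67.2 FPKM with shPcyt2-2. That of 24 other published targets was 737.3 and 735.9 FPKM with shNT, 574.4 and 616.7 FPKM with shPcyt2-1 and 645.8 and 692.0 FPKM with shPcyt2-2. Without IGFBP3, an abundant member of that list, its sum was 457.1 and 473.3 FPKM with shNT, 453.0 and 478.8 FPKM with shPcyt2-1 and 424.8 and 471.5 FPKM with shPcyt2-2, and the groups overlapped.

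**Figure D3:**
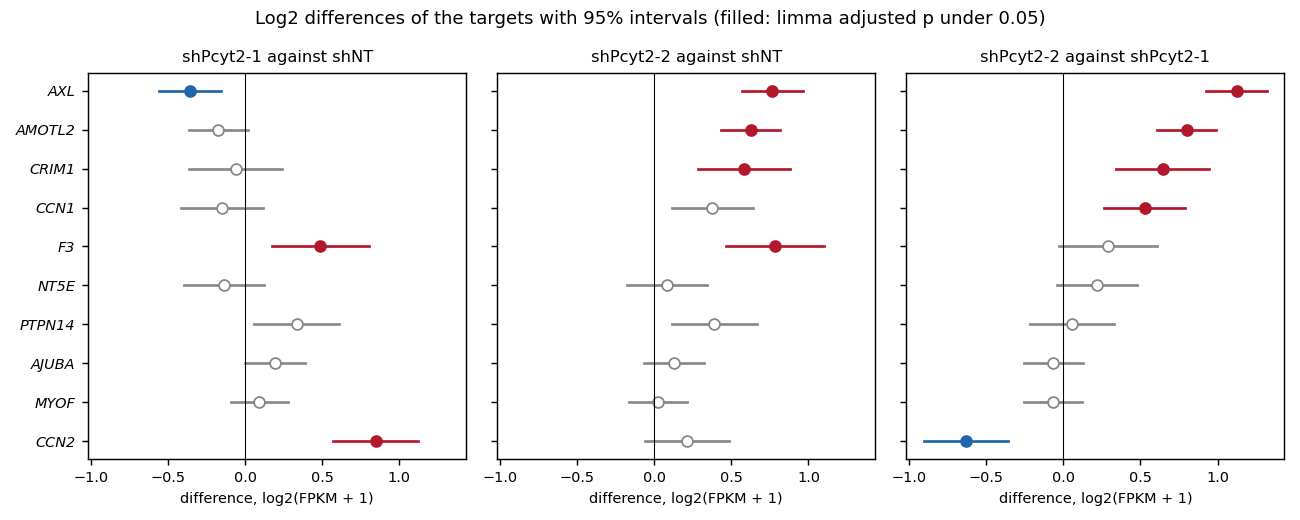
Log2 differences (horizontal axes, log2(FPKM + 1)) of the 10 targets in the 3 comparisons with their 95% intervals, where filled points have a limma adjusted p under 0.05. AXL lies at -0.36 with shPcyt2-1 and at 0.77 with shPcyt2-2, and CCN2 lies at 0.85 and 0.21.

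The secreted matricellular proteins CCN1 (CYR61; ENSG00000142871, chr1:85580761-85583962) and CCN2 (CTGF; ENSG00000118523, chr6:131948176-131951373) are the targets most often used to read YAP and TAZ activity. CCN1 was at 2.76 and 3.00 FPKM with shNT, at 2.24 and 2.77 FPKM with shPcyt2-1 and at 4.34 and 3.75 FPKM with shPcyt2-2. Both shPcyt2-2 libraries lay above the other 4, while shPcyt2-1 overlapped shNT. From shPcyt2-1 to shPcyt2-2 CCN1 differed by 0.53 (SE 0.12, limma adjusted p = 0.0107), and from shNT to shPcyt2-2 by 0.38 (95% interval 0.11 to 0.64, limma adjusted p = 0.0643). The former was 0.42 (limma adjusted p = 0.0957) without the first shPcyt2-1 library, 0.44 (limma adjusted p = 0.0628) without the first shPcyt2-2 library, and had an adjusted p of 0.0545 with no expression limit.

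CCN2 showed another order. It was at 1.65 and 1.46 FPKM with shNT, at 3.91 and 3.29 FPKM with shPcyt2-1 and at 2.18 and 1.76 FPKM with shPcyt2-2. None of the groups overlapped, and shPcyt2-1 was highest. The mean level with shPcyt2-1 was 2.32 times that of shNT, and the log2 difference was 0.85 (SE 0.12, limma adjusted p = 0.00239). With shPcyt2-2 it was 0.21 (95% interval -0.06 to 0.49, limma adjusted p = 0.259), and without 1 library it ran from 0.11 to 0.32. The 2 hairpins differed by -0.63 (shPcyt2-2 against shPcyt2-1, SE 0.12, limma adjusted p = 0.00568), opposite in sign to that of CCN1. Of the other CCN genes, CCN4 was listed in no library, and CCN3, CCN5 and CCN6 stayed below the limit of 0.5 FPKM on average and were not tested.

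Tissue factor, the product of F3 (ENSG00000117525, chr1:94529225-94541800), is the cell-surface starter of blood clotting. F3 was at 1.29 and 0.739 FPKM with shNT, at 1.74 and 1.86 FPKM with shPcyt2-1 and at 2.27 and 2.59 FPKM with shPcyt2-2. All 4 knockdown libraries lay above both shNT libraries, which also differed most from each other among the groups. The log2 difference was 0.49 (SE 0.14, limma adjusted p = 0.0327) with shPcyt2-1 and 0.78 (SE 0.14, limma adjusted p = 0.0123) with shPcyt2-2. Between the hairpins it was 0.29 (95% interval -0.02 to 0.61, limma adjusted p = 0.153). Both calls were lost when a library was left out. Without the second shNT library the differences were 0.29 and 0.58 (limma adjusted p = 0.189 and 0.063). Without the first or second shPcyt2-1 library the difference with that hairpin was 0.52 and 0.46 (limma adjusted p = 0.0916 and 0.108). Without the first or second shPcyt2-2 library it was 0.85 and 0.71 (limma adjusted p = 0.0792 and 0.0626). With no expression limit the adjusted p was 0.119 and 0.0816, and with median-ratio scaling the adjusted p with shPcyt2-1 was 0.0524.

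AXL (ENSG00000167601, chr19:41219203-41261766) encodes a receptor tyrosine kinase that binds GAS6, and it was the target that parted furthest between the hairpins. It was at 5.24 and 5.18 FPKM with shNT, at 3.82 and 3.88 FPKM with shPcyt2-1 and at 9.75 and 9.38 FPKM with shPcyt2-2. The libraries of each group were close together and no groups overlapped, with shPcyt2-1 below shNT and shPcyt2-2 above it. The log2 difference was -0.36 (SE 0.09, limma adjusted p = 0.0185) with shPcyt2-1 and 0.77 (SE 0.09, limma adjusted p = 0.00263) with shPcyt2-2. The level with shPcyt2-2 was 2.48 times that with shPcyt2-1, a log2 difference of 1.12 (SE 0.09, limma adjusted p = 9.21e-05). The call with shPcyt2-1 was lost without the first or second shNT library (limma adjusted p = 0.0529 and 0.064) and without the first or second shPcyt2-1 library (0.129 and 0.0893), although the difference stayed between -0.37 and -0.35. The calls with shPcyt2-2 and between the hairpins were kept without any 1 library.

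NT5E (ENSG00000135318, chr6:85449584-85495791), the ectonucleotidase CD73 that makes adenosine, did not pass in any comparison. It was at 2.75 and 2.74 FPKM with shNT, at 2.41 and 2.40 FPKM with shPcyt2-1 and at 3.34 and 2.62 FPKM with shPcyt2-2. CRIM1 (ENSG00000150938, chr2:36355926-36551135), a transmembrane protein that binds BMPs, was at 1.63 and 2.04 FPKM with shNT, at 1.67 and 1.75 FPKM with shPcyt2-1 and at 3.74 and 2.79 FPKM with shPcyt2-2. The shPcyt2-2 libraries lay above the other 4, and shPcyt2-1 lay within the range of shNT. CRIM1 was higher with shPcyt2-2 by 0.58 against shNT (SE 0.13, limma adjusted p = 0.0255) and by 0.64 against shPcyt2-1 (SE 0.13, limma adjusted p = 0.00801). The call against shNT was lost without the first shNT library (difference 0.48, limma adjusted p = 0.0824), the second shNT library (0.69, adjusted p = 0.0638) or the first shPcyt2-2 library (0.42, adjusted p = 0.145). Both calls were lost with no expression limit (0.115 and 0.0535). The values of CRIM1 were identical to those of 1 other identifier in the tables and were counted once.

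AMOTL2 (ENSG00000114019, chr3:134355874-134375479) and PTPN14 (ENSG00000152104, chr1:214348696-214552449) are targets that act back on the pathway, since the angiomotin AMOTL2 and the phosphatase PTPN14 bind YAP and restrain it. AMOTL2 was at 7.14 and 7.71 FPKM with shNT, at 6.47 and 6.45 FPKM with shPcyt2-1 and at 11.8 and 12.2 FPKM with shPcyt2-2. As for AXL, no groups overlapped and shPcyt2-1 was lowest, but its difference from shNT did not pass (-0.17, 95% interval -0.37 to 0.02, limma adjusted p = 0.153). AMOTL2 was higher with shPcyt2-2 by 0.63 against shNT (SE 0.08, limma adjusted p = 0.00501) and by 0.80 against shPcyt2-1 (SE 0.08, limma adjusted p = 0.000401).

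PTPN14 was at 2.42 and 2.26 FPKM with shNT, at 3.65 and 2.82 FPKM with shPcyt2-1 and at 3.58 and 3.19 FPKM with shPcyt2-2. All 4 knockdown libraries lay above both shNT libraries, and the hairpins overlapped. The differences from shNT were 0.33 (95% interval 0.06 to 0.61, limma adjusted p = 0.0693) and 0.39 (95% interval 0.12 to 0.66, limma adjusted p = 0.0652). Without 1 library the former ran from 0.19 to 0.48 and the latter from 0.33 to 0.45. Between the hairpins the interval was -0.22 to 0.33 (limma adjusted p = 0.766). CCN2, F3 and PTPN14 were the 3 of 10 targets with all 4 knockdown libraries above both shNT libraries, where 20.7% of all tested genes had that order. No target had all 4 below, where 9.48% of all tested genes did.

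The LIM protein AJUBA (ENSG00000129474, chr14:22971174-22982642), which binds LATS kinases, was at 17.2 and 20.1 FPKM with shNT, at 21.6 and 21.2 FPKM with shPcyt2-1 and at 20.1 and 20.8 FPKM with shPcyt2-2. It differed from shNT by 0.19 for shPcyt2-1 (limma adjusted p = 0.122) and by 0.13 for shPcyt2-2 (limma adjusted p = 0.328). Without the second shNT library the former was 0.30, and without the first it was 0.086. The latter was then 0.24 and 0.022. MYOF (ENSG00000138119, chr10:93306429-93482317), a ferlin of membrane repair and endocytosis, was at 8.14 and 8.28 FPKM with shNT, at 8.70 and 8.96 FPKM with shPcyt2-1 and at 8.58 and 8.18 FPKM with shPcyt2-2. Neither of these abundant targets was called in any comparison with all libraries. Between the hairpins the 95% interval was -0.26 to 0.13 for AJUBA and -0.25 to 0.12 for MYOF, so a difference as large as that of CCN1, CCN2, AXL, AMOTL2 or CRIM1 lay outside it.

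Of 7 tested genes of the coactivators and their partners, 2 were called in each of the 3 comparisons, beside 26.7%, 12.4% and 27.1% of all tested genes. YAP1 was at 25.8 and 25.5 FPKM with shNT, at 28.4 and 28.1 FPKM with shPcyt2-1 and at 36.4 and 30.7 FPKM with shPcyt2-2. All 4 knockdown libraries lay above both shNT libraries, and YAP1 rose with shPcyt2-2 (log2 difference 0.37, limma adjusted p = 0.0268). WWTR1, the gene of TAZ, was at 3.36 and 3.45 FPKM with shNT, at 2.60 and 2.50 FPKM with shPcyt2-1 and at 3.22 and 2.55 FPKM with shPcyt2-2. Every knockdown library was below both shNT libraries, but neither hairpin passed, with log2 differences of -0.31 and -0.19 (limma adjusted p = 0.0689 and 0.294). With median-ratio scaling shPcyt2-1 did (-0.37, limma adjusted p = 0.0255).

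Of the TEAD genes, which encode the DNA-binding partners, TEAD1 and TEAD2 rose with shPcyt2-1 by 0.34 and 0.38 on the log2 scale (limma adjusted p = 0.0298 and 0.0156). TEAD4, the most abundant, was at 50.8 and 53.3 FPKM with shNT and at 37.4 and 42.3 FPKM with shPcyt2-2, where it fell by 0.38 (limma adjusted p = 0.0162). Between the hairpins TEAD2 differed by -0.40 and TEAD4 by -0.42, both lower with shPcyt2-2 (limma adjusted p = 0.0115 and 0.00431). TEAD3 stood at -0.30 with shPcyt2-2 (limma adjusted p = 0.0776). VGLL4, which competes with YAP for TEAD, stayed between 17.2 and 19.0 FPKM in all libraries, and VGLL1 was listed in no library. With median-ratio scaling YAP1 also passed between the hairpins (0.26, limma adjusted p = 0.0313).

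The study names ZEB1, SNAI2 and MYC among the genes downstream of YAP. It also measured YAP1 at the promoters of CCN2 (CTGF), ZEB1 and SNAI2, and reports more of it after loss of PCYT2. MYC is cited there from earlier work. The values below are mRNA levels only. ZEB1, a transcription factor of epithelial-mesenchymal transition, was at 0.835 and 0.684 FPKM with shNT, at 0.686 and 0.595 FPKM with shPcyt2-1 and at 1.27 and 1.20 FPKM with shPcyt2-2. As for CRIM1, the shPcyt2-2 libraries lay above the other 4, and ZEB1 differed between the hairpins by 0.45 (limma adjusted p = 0.0155). Against shNT neither hairpin passed, with 0.35 for shPcyt2-2 and -0.10 for shPcyt2-1 (limma adjusted p = 0.0658 and 0.517). SNAI2, a repressor of E-cadherin, was at 0.885 and 1.08 FPKM with shNT, at 1.47 and 1.69 FPKM with shPcyt2-1 and at 1.27 and 0.863 FPKM with shPcyt2-2. Like CCN2 it was highest with shPcyt2-1, but its difference from shNT did not pass (0.38, limma adjusted p = 0.055). MYC stayed between 245.5 and 280.0 FPKM in all libraries, with no call.

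**Figure D4:**
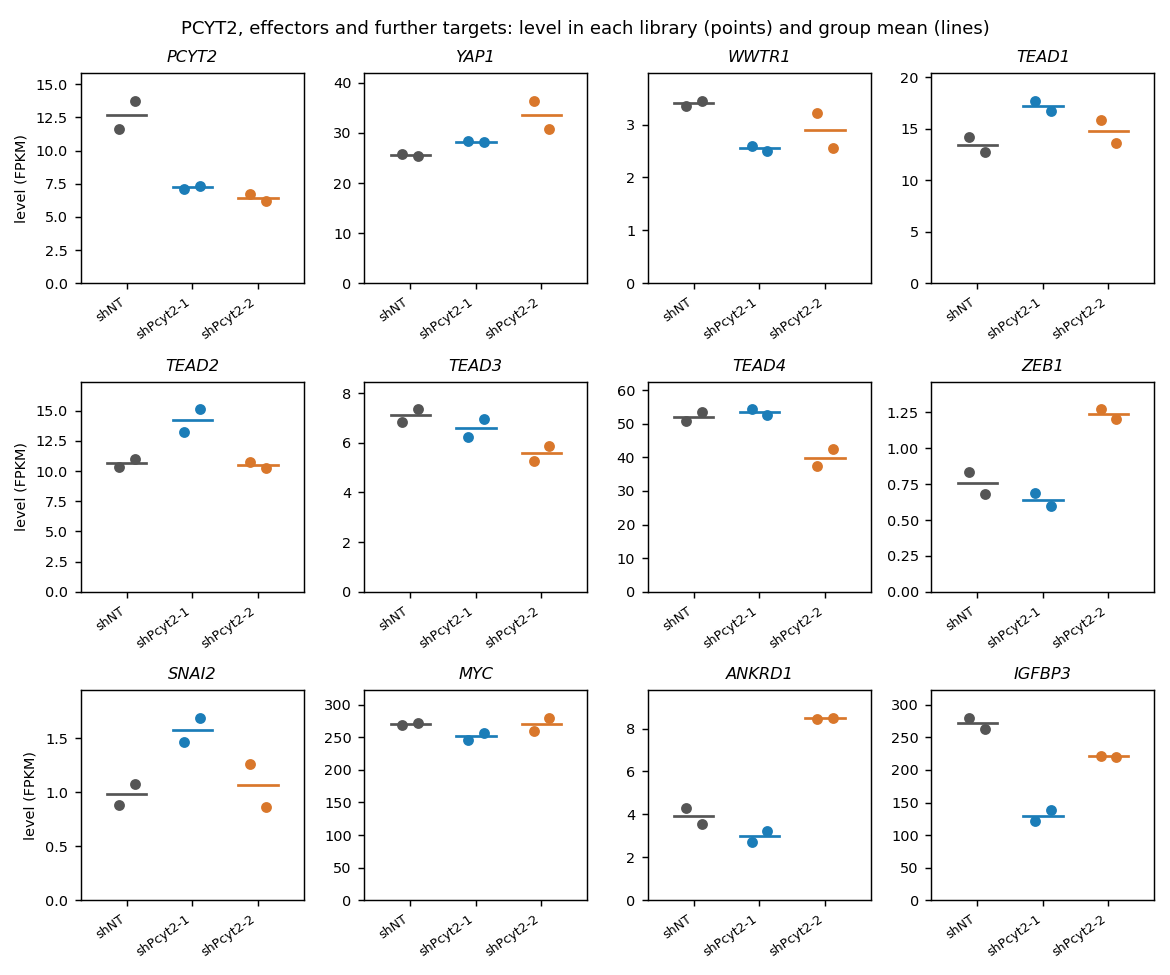
Level in FPKM (vertical axes, each from 0) of PCYT2, YAP1, WWTR1, the 4 TEAD genes, ZEB1, SNAI2, MYC and the targets ANKRD1 and IGFBP3 in the 2 libraries of each group, with points for libraries and lines for group means. ANKRD1 is highest with shPcyt2-2, and IGFBP3 lies below shNT with both hairpins.

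A list of 24 other published targets, of which 18 were above the limit, was compared in the same way. Of the 18, 8 were higher and 3 lower with shPcyt2-2 than with shPcyt2-1, where 12.9% and 14.2% of all tested genes were, and their median was 0.22. With shPcyt2-1 against shNT 1 rose and 2 fell (median -0.03), where 16.5% of all tested genes rose and 10.1% fell. With shPcyt2-2 3 rose and 2 fell (median 0.09), where 7.69% and 4.74% of all tested genes did. After median-ratio scaling 9 were higher and 2 lower between the hairpins, beside 1835 and 1703 of all 12756 tested genes. With shPcyt2-1, 5 then fell (1713 of all tested genes did) and none rose by limma (1476 of all did), with 1 of the list higher at an unadjusted p under 0.05. With shPcyt2-2, 2 then rose and 4 fell (760 and 845 of all did).

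ANKRD1, a muscle ankyrin-repeat protein and widely used YAP target, was at 4.31 and 3.56 FPKM with shNT, at 2.72 and 3.24 FPKM with shPcyt2-1 and at 8.46 and 8.50 FPKM with shPcyt2-2. It had the order of AXL and differed by 1.25 between the hairpins (SE 0.11, limma adjusted p = 0.00019). Against shNT, ANKRD1 rose with shPcyt2-2 (0.95, limma adjusted p = 0.00311). Its difference with shPcyt2-1 did not pass (-0.31, limma adjusted p = 0.0708), except with median-ratio scaling (-0.37, limma adjusted p = 0.0436). IGFBP3, a binding protein of insulin-like growth factors, was at 280.2 and 262.6 FPKM with shNT, at 121.5 and 137.9 FPKM with shPcyt2-1 and at 221.0 and 220.5 FPKM with shPcyt2-2. It fell with shPcyt2-1 (log2 difference -1.06, limma adjusted p = 0.000129) and, less far, with shPcyt2-2 (-0.30, adjusted p = 0.0288 by limma), and it was higher with shPcyt2-2 than with shPcyt2-1 by 0.77. Both were thus lowest with shPcyt2-1.

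Among those lower with shPcyt2-2 than with shPcyt2-1, AREG (amphiregulin, an EGFR ligand) was at 51.9 and 46.1 FPKM with shNT, at 61.9 and 70.7 FPKM with shPcyt2-1 and at 48.2 and 55.8 FPKM with shPcyt2-2. Like CCN2 it was highest with shPcyt2-1 and differed between the hairpins by -0.34 (limma adjusted p = 0.0279), a call that median-ratio scaling ended (0.074). GADD45A, a stress-response gene, differed by -0.29 (limma adjusted p = 0.00841), and BIRC5 (survivin, a mitotic and antiapoptotic protein) by -0.24 (limma adjusted p = 0.0474).

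Of 15 Hippo kinases and regulators tested, 1 was called between the hairpins, where 27.1% of all tested genes were. STK4, which encodes the kinase MST1, was at 16.0 and 14.1 FPKM with shNT, at 18.2 and 18.2 FPKM with shPcyt2-1 and at 23.5 and 21.6 FPKM with shPcyt2-2. It was higher with shPcyt2-2 than with shPcyt2-1 by 0.29 (limma adjusted p = 0.0323), and with median-ratio scaling 3 of the 15 were called there, beside 3538 of all 12756 tested genes. Against shNT, 2 rose with shPcyt2-1 (16.5% of all tested genes did), and 4 rose and 2 fell with shPcyt2-2 (7.69% and 4.74% of all tested genes did).

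**Figure D5:**
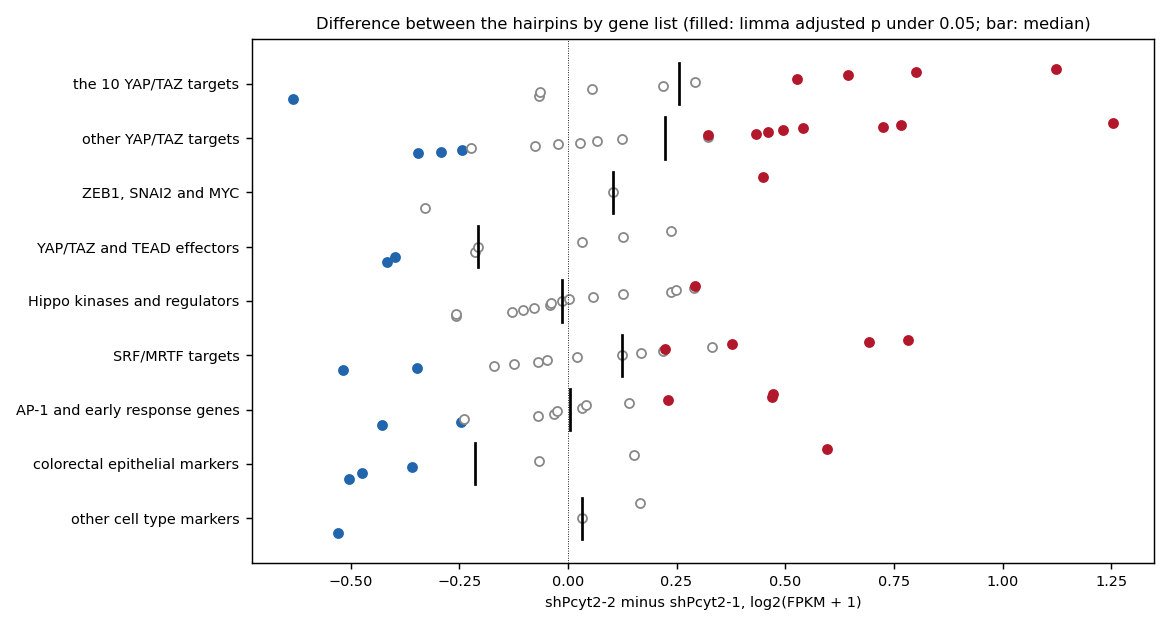
Log2 difference of shPcyt2-2 against shPcyt2-1 (horizontal axis, log2(FPKM + 1)) for each tested gene of the gene lists, 1 line per list, where filled points have a limma adjusted p under 0.05 and bars mark list medians. The 10 targets have a median of 0.26 and the other targets one of 0.22, with called genes on both sides of 0 in each.

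The genes whose levels ran most like CCN1, CCN2 and AXL over the 6 libraries differed from each other. They were ranked by Pearson r on log2(FPKM + 1) among 7616 genes with a mean of at least 5 FPKM (7615 besides AXL itself), as a description, since the 6 libraries fall into 3 groups. For CCN1 the nearest were PJA1, GIGYF2 and QRICH1 (r = 0.9942, 0.9899 and 0.9887), and 67 genes reached an r of 0.95. For CCN2 they were TSPAN6, YWHAQ and TMEM47 (r = 0.9968, 0.9968 and 0.9963), and 301 genes reached 0.95. For AXL they were PTGDS, MUC13 and GLI3 (r = 0.9993, 0.9967 and 0.9954), and 171 genes reached 0.95. TSPAN6 was at 6.79 and 6.57 FPKM with shNT, at 12.3 and 11.2 FPKM with shPcyt2-1 and at 8.53 and 7.36 FPKM with shPcyt2-2, which is the order of CCN2. PTGDS was at 35.2 and 35.2 FPKM with shNT, at 27.1 and 27.8 FPKM with shPcyt2-1 and at 66.4 and 64.4 FPKM with shPcyt2-2, which is the order of AXL.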

How the data were processed

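Of the 6 RNA-Seq libraries from SW480 cells, the authors deposited 1 table each with a normalized value per Ensembl identifier, listing only genes above 0. Their unit, FPKM, was inferred from their range and sums. The labels name 2 library kits with no role for either, the submitters' processing notes name the builds GRCh38, GRCm38 and mm10 without a role, and the aligner is not given in the sources used here. The study tested counts with an R package for count data. Here limma 3.58.1 (R 4.3.3) was used on the FPKM values, two-sided and with a mean-variance trend.

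The tables hold 21539 identifiers. Lines of the 115 that occur more than once in a library were added up, and 999 groups whose values were the same in every library that lists them (at least 3) were joined, leaving 19746 genes. Positions came from GENCODE release 29 (GRCh38), which matched 19504 identifiers, and promoter windows from RefSeq. Symbols came from a separate list of gene names by Ensembl identifier, with the name of release 29 where that list gave none. The fit was tested on simulated data. The targets, the gene lists and the rules were chosen with earlier results of these data known. From each list of pathway genes, up to 3 genes higher and 3 lower with the largest difference between the hairpins were named, and all coactivator and TEAD genes and ZEB1, SNAI2 and MYC. A single gene that this rule names is not reported here. Likeness used the 3 nearest genes per target. All p-values measure the spread between these libraries, which may be technical.

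Alternatives covered the pseudocount, the expression limit, scaling, the variance trend, the groups in the fit, the replicate number as a block, repeated identifiers and leaving out each library. Figures were drawn with matplotlib 3.10.9.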

Additional observations from a re-analysis of the deposited data

Results flagged for a closer look

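For 5 targets the effects of the 2 hairpins against the same shNT libraries differed by a direct test (limma, shPcyt2-2 against shPcyt2-1). The log2 difference was 1.12 for AXL, 0.80 for AMOTL2, 0.64 for CRIM1, 0.53 for CCN1 and -0.63 for CCN2. Of all tested genes 27.1% were called in this comparison. For AXL the effects against shNT also lay on opposite sides of 0, each with a limma adjusted p under 0.05 with all libraries. Its call with shPcyt2-1 was lost without any 1 library of shNT or shPcyt2-1, with a difference between -0.37 and -0.35. CCN1, AMOTL2 and CRIM1 had a negative difference with shPcyt2-1 that did not pass. Without an expression limit CCN1 and CRIM1 were not called between the hairpins, and the call of CCN1 there also depended on single libraries. The knockdown of PCYT2 itself was not shown to differ between the hairpins (log2 difference -0.15, limma adjusted p = 0.309).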

How the results depend on the processing

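With 2 libraries a group, single libraries decided several calls. The main count of targets called was 3 with shPcyt2-1, 4 with shPcyt2-2 and 5 between the hairpins. Leaving out 1 library at a time gave 1 to 3 (1 without either shPcyt2-1 library), 2 to 4 (2 without the second shNT or the first shPcyt2-2 library) and 4 to 5, and with no expression limit the counts were 2, 2 and 3. The calls of CCN2 with shPcyt2-1, of AXL and AMOTL2 with shPcyt2-2, and of CCN2, AXL and AMOTL2 between the hairpins were kept under every alternative run. The targets' median with shPcyt2-1 ran from -0.027 to 0.074 without 1 library and was -0.040 with median-ratio scaling. Differences not called that changed sign without 1 library were CRIM1 with shPcyt2-1 (-0.16 to 0.043), NT5E (-0.050 to 0.21) and MYOF (-0.0042 to 0.057) with shPcyt2-2, and PTPN14 between the hairpins (-0.085 to 0.20). MYOF with shPcyt2-2 was -0.021 with median-ratio scaling. Of 240 target values under settings other than leaving out a library, 231 kept direction and side of the threshold. The replicate numbers were not shown to pair the samples (correlations of the replicate deviations between groups 0.003, 0.062 and 0.191). With the number as a block, PTPN14 passed with shPcyt2-1 (limma adjusted p = 0.0378) and shPcyt2-2 (0.038), which made the counts 4, 5 and 5. The block also raised the calls among all 12756 tested genes, from 3400, 1585 and 3463 to 3884, 2029 and 3869. Over all tested genes, calls fell from 3400 to 1831 with shPcyt2-1 and from 1585 to 124 with shPcyt2-2 with no expression limit, and to 1027 with shPcyt2-2 with no variance trend. Without 1 library they ranged from 1147 to 3256, from 125 to 1893 and, between the hairpins (main 3463), from 1662 to 3785. The causes were not tested. Tests for counts could not be applied to FPKM.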

Other observations

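Serum response factor and its MRTF coactivators control actin genes and share targets with YAP and TAZ. Of 15 tested genes of that list, 4 were higher and 2 lower with shPcyt2-2 than with shPcyt2-1 (median 0.13), where 12.9% and 14.2% of all tested genes were. MYL9, a myosin light chain, was at 1.94 and 2.58 FPKM with shNT, at 1.94 and 2.03 FPKM with shPcyt2-1 and at 4.55 and 3.76 FPKM with shPcyt2-2, a difference of 0.78 between the hairpins (limma adjusted p = 0.00278). FHL1, a LIM-domain protein, differed by 0.69 (limma adjusted p = 0.00122) and the transgelin TAGLN2 by 0.38 (limma adjusted p = 0.00341). The focal adhesion protein ZYX differed the other way by -0.52 (limma adjusted p = 0.00502) and FHL2 by -0.35 (limma adjusted p = 0.00937), so members of the list parted in both directions.

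Of 12 AP-1 and early response genes, 3 were higher and 2 lower with shPcyt2-2 than with shPcyt2-1, against the same shares of all tested genes. Of the AP-1 subunits, JUND (difference 0.47, limma adjusted p = 0.0055) and FOS (0.47, limma adjusted p = 0.0219) were higher, and FOSL1 was lower (-0.43, limma adjusted p = 0.00367), while FOSB, FOSL2, JUN and JUNB were not called. Like CCN2, FOSL1 was highest with shPcyt2-1, but its shNT and shPcyt2-2 libraries overlapped, at 48.3 and 50.7 FPKM with shNT, 68.3 and 73.1 FPKM with shPcyt2-1 and 49.4 and 55.3 FPKM with shPcyt2-2. EGR1 and IER2 were called at 0.23 and -0.25 (limma adjusted p = 0.0464 and 0.0422), and neither was with median-ratio scaling (0.0696 and 0.116). Of the 6 epithelial markers, 1 was higher and 3 lower, against the same shares of all tested genes. KRT8, KRT18 and KRT19 were lower with shPcyt2-2 than with shPcyt2-1, with differences of -0.36, -0.47 and -0.50 (limma adjusted p = 0.0021, 0.000589 and 0.000758), and CDX2 was higher by 0.60 (limma adjusted p = 0.00113). EPCAM and CDH1 stood at -0.07 and 0.15 and were not called.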
